A study of Daphnia magna with 12 samples.

Results

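The response of the water flea Daphnia magna to copper oxide (CuO) nanoparticles was measured as the difference between 4 CuO arrays and 4 blank arrays, which are 8 of the 12 arrays of the copper experiment. The arrays were taken by their titles, and all 4247 probes whose identifiers start with DM and a number were described. Each CuO sample was an RNA pool of 40 daphnids kept for 96 hours in medium spiked with CuO nanoparticles at the concentration labelled EC10 for immobilisation, the level that stops a small share of the animals from swimming. Each blank sample was a pool of 40 daphnids kept for 96 hours in the same medium without added copper. The remaining group received dissolved copper chloride (CuCl2), also at its EC10, so the doses of both copper forms were set by their effect on the animals rather than by mass. All groups were fed the same algae, had their medium renewed after 48 hours, and were labelled as aged 96 hours at sampling. RNA came from whole bodies, so more RNA per cell and more cells of a type cannot be told apart. Each pool shared a 2-colour array with a reference mixed in equal parts from CuO, CuCl2 and blank RNA. Replicates 1 and 2 of each group carried the dye cy3, and replicates 3 and 4 carried cy5.

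Daphnia magna feeds by filtering particles from the water and therefore takes up nanoparticles with its food. CuO particles also dissolve in part and release copper ions. Copper is a cofactor of enzymes such as those of respiration and of defence against oxygen radicals. In excess it disturbs the uptake of sodium in freshwater animals and promotes the formation of oxygen radicals, and cells bind the surplus with metallothioneins. Which of these functions the probes stand for cannot be said here, because 0 of the 4247 identifiers occur in the RefSeq gene table of Daphnia magna and no file used here gives their sequences. Probes are therefore named by identifier.

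Values are log2 ratios to the reference as deposited, and a fold change is the difference between CuO and blank, from which the reference cancels. The table does not state its direction or its log base. A reference mixed from equal parts requires the linear ratios of the 3 groups to average 1. The average was taken here over the back-transformed mean log ratio of each group, which cannot exceed the group's mean linear ratio. Over the probes that changed at least 2-fold, this average had a median of 0.984 among the rises and 0.983 among the falls. With the sign of the table turned it was 1.32 and 1.27, so exposed sample over reference is the likely direction, which rests on the design and not on a statement by the authors. A natural log scale gave 1.03 and 1.06, so base 2 is an assumption, and every fold change would be larger on that other scale. Column medians ranged from -0.06 to 0.04 over the 12 arrays, and the median log2 fold change over all probes was 0.03. Signal brightness was not used here, and the small number of arrays limits the precision.

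CuO nanoparticles changed the level of 1279 of the 4247 probes, or 30.1% (limma, two-sided moderated test with dye orientation as covariate, Benjamini-Hochberg adjusted p under 0.05). Of these, 741 were higher in CuO animals (17.4% of all probes) and 538 were lower (12.7%). The rises reached further than the falls. A change of at least 2-fold was reached by 239 higher probes (5.63%) and 81 lower ones (1.91%), at least 4-fold by 46 and 6, and at least 8-fold by 8 and 0. The 99th percentile of the log2 fold change over all probes was 2.05 and the first percentile was -1.15. The 42 probes with the largest changes, 36 of them higher in CuO, carried 18.6% of the summed squared log2 fold change. Stricter thresholds kept more rises than falls. At an adjusted p under 0.01 there were 369 higher and 156 lower probes, and at 0.001 there were 124 and 10.

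**Figure D1:**
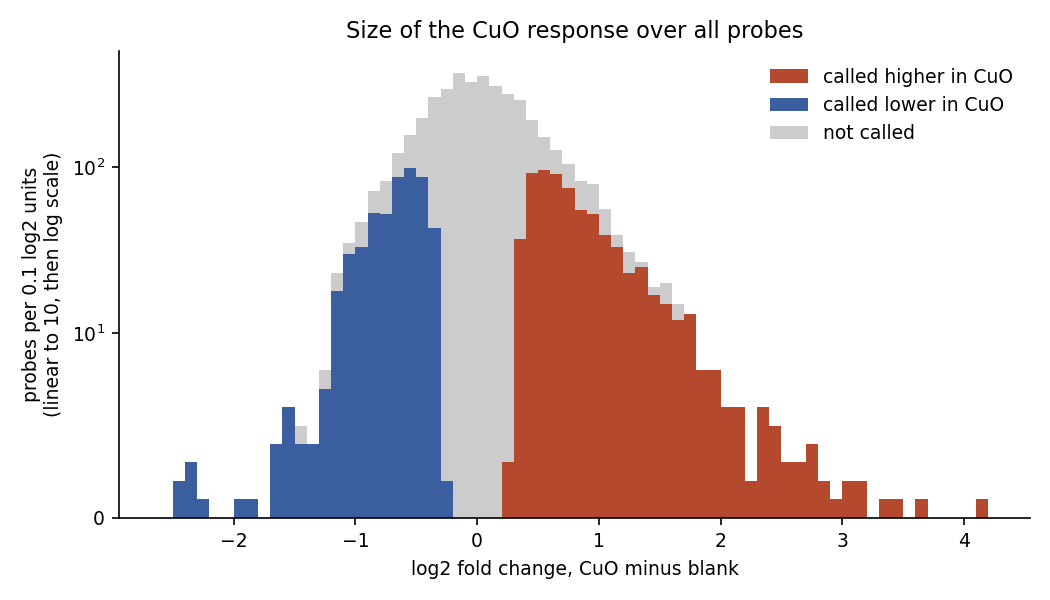
Number of probes by log2 fold change (CuO minus blank) in steps of 0.1; the vertical axis is linear up to 10 and logarithmic above, coloured bars are probes called higher or lower, and the top of the grey gives all probes. The called rises extend to 4.14, whereas the called falls end at -2.49.

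The share of rises among the calls depended on how the arrays were centred. With quantile normalization between arrays the higher probes made up 47.8% of the calls and with each array centred on its median 51.7%, against 57.9% as deposited. Quantile normalization left 19 called rises of at least 4-fold, and giving every array the same median absolute deviation left 30. Leaving the dye term out of the model gave 629 calls, leaving out CuO replicate 1 gave 806 and leaving out blank replicate 4 gave 827. Falls of at least 2-fold numbered 45 without blank replicate 4. Called falls numbered 298 without CuO replicate 1, 333 without CuO replicate 3 and 306 without blank replicate 4.

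The 10 largest rises among called probes with separate groups lay between 7.26-fold and 17.6-fold. In all 10 the 4 CuO values lay above the 4 blank values as deposited. The CuO values ran from -0.93 to 1.22 and the blank values from -4.10 to -1.23. The CuO values were thus close to the reference and the blank values far below it. The reference mixes both copper groups with the blank. All 10 probes were also called higher in CuCl2 animals, a comparison that shares the 4 blanks on which these probes were chosen. Over all 4247 probes, 1726 (40.6%) were called for CuCl2 against blank in either direction. DM11354P1 had log2 ratios of 0.85, -0.20, 0.60 and 0.71 in CuO replicates 1 to 4, against -3.98, -3.65, -3.51 and -3.44 in blank replicates 1 to 4. The gap between the groups exceeded the range within either of them, and the fold change was 17.6 (log2 4.14, SE 0.28, limma adjusted p = 1.43e-05). DM09121P1 had 0.61, -0.24, 0.58 and 0.73 in CuO animals and -3.45, -3.18, -3.49 and -2.78 in blank animals, a 12.5-fold rise (SE 0.34 on the log2 scale, limma adjusted p = 6.67e-05). DM05678P4 had 0.52, -0.35, 0.53 and 0.90 in CuO animals and -3.17, -3.07, -3.18 and -2.72 in blank animals, a 10.8-fold rise (SE 0.43, limma adjusted p = 0.000395). In these 3 probes CuO replicate 2 was the lowest CuO array as deposited, and the deposited blanks lay closer together. After dye centring the SD was larger over blank than over CuO arrays in DM09121P1 (0.47 against 0.40) and DM05678P4 (0.49 against 0.43). In DM11354P1 it was smaller (0.22 against 0.46).

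DM02677P3 and DM08362P4 changed a little less but had smaller errors (SE 0.18 and 0.24 on the log2 scale). These errors pool the spread of the CuO, CuCl2 and blank arrays. DM02677P3 had 0.52, 0.05, 0.94 and 0.58 in CuO animals, against -2.86, -2.50, -2.46 and -2.36 in blank animals. Its SE of 0.18 and limma adjusted p of 1.31e-05, the smallest p of all probes, came with an 8.40-fold rise. DM08362P4 had 0.35, -0.10, 1.22 and 0.44 in CuO animals and -2.75, -2.68, -2.12 and -2.93 in blank animals, an 8.55-fold rise (limma adjusted p = 2.76e-05). The probe with the second smallest p among the rises, DM12118P2, had 0.20, -0.17, 0.50 and 0.42 in CuO animals and -2.18, -2.29, -1.83 and -2.11 in blank animals. It rose 5.06-fold (SE 0.16 on the log2 scale, limma adjusted p = 1.43e-05), with little spread in either group.

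Of the other 5 of these rises, DM01846P3 and DM02485P1 had the largest errors of the 10. DM01846P3 had 0.60, -0.40, 0.42 and -0.93 in CuO animals and -3.60, -3.38, -3.85 and -2.92 in blank animals, a 10.3-fold rise (SE 0.54, limma adjusted p = 0.00154). DM02485P1 had 0.79, -0.13, 0.23 and -0.72 in CuO animals and -2.61, -3.01, -4.10 and -2.83 in blank animals, a 9.06-fold rise (SE 0.65, limma adjusted p = 0.00556). In both probes CuO replicate 4 was the lowest CuO array. DM08027P3 had 0.42, -0.14, 0.23 and 0.34 in CuO animals and -1.97, -3.44, -3.04 and -3.30 in blank animals, a rise of 8.90-fold (limma adjusted p = 0.000248). DM13920P1 had 0.37, -0.31, 0.53 and 0.49 in CuO animals and -3.11, -2.49, -2.54 and -2.76 in blank animals, a rise of 7.97-fold (limma adjusted p = 4.88e-05). Blank replicate 1 was the highest blank in DM08027P3 and the lowest in DM13920P1. DM12381P3 had 0.70, -0.35, 0.29 and 0.85 in CuO animals and -3.28, -1.23, -2.77 and -2.67 in blank animals, a 7.26-fold rise (limma adjusted p = 0.000845). Its blank replicate 2 lay nearer to the CuO arrays than the other blanks did. Quantile normalization made the fold changes smaller by a factor above 1.5 for DM09121P1 (log2 fold change 3.01), DM05678P4 (2.83), DM01846P3 (2.67), DM02485P1 (2.44) and DM13920P1 (2.36), and all 5 stayed called.

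**Figure D2:**
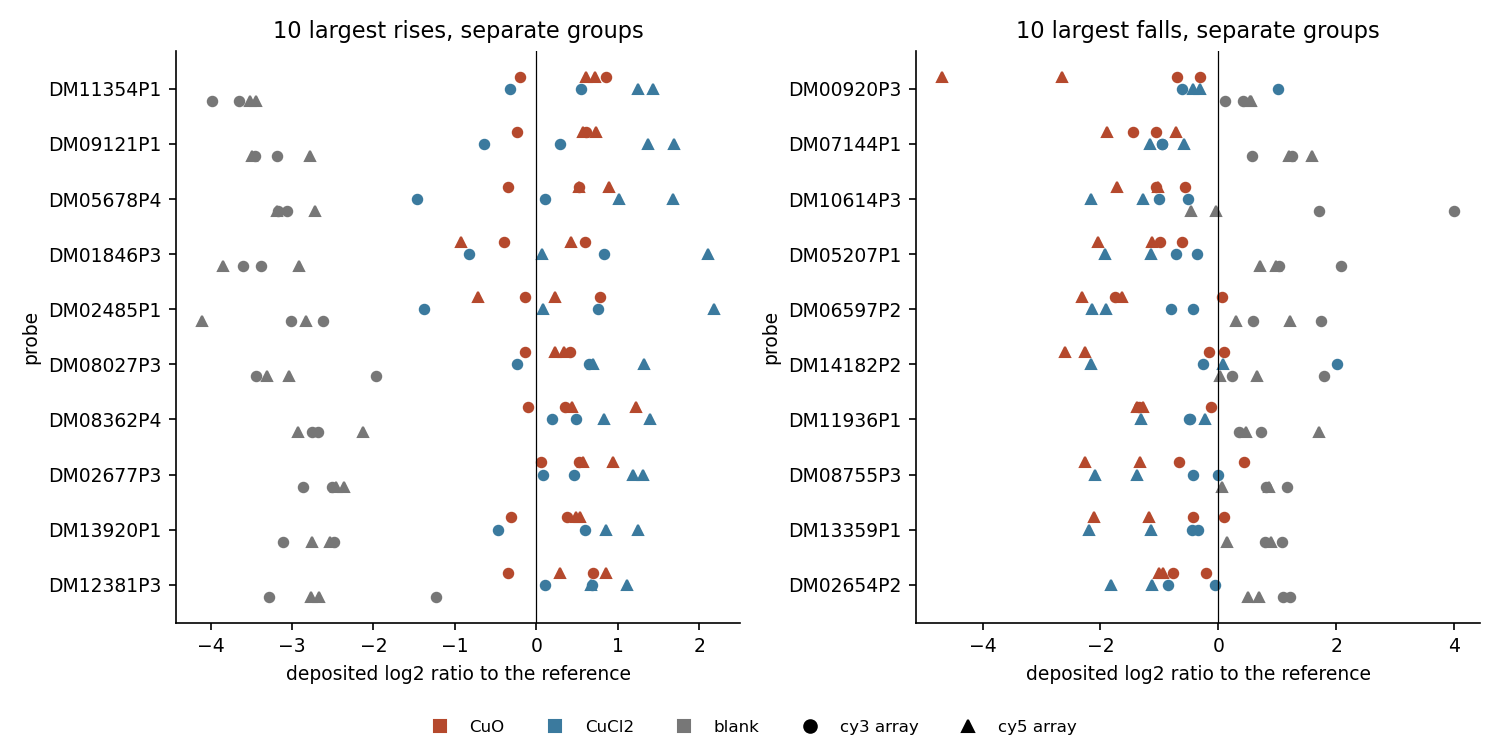
Deposited log2 ratio to the reference (horizontal axis) on each of the 12 arrays for the 10 largest called rises (left) and falls (right) with separate dye-centred groups, with CuO above CuCl2 above blank in each probe, circles for cy3 and triangles for cy5 arrays. In the rises the blanks lie between -4.10 and -1.23, apart from all copper arrays; in the falls the groups lie closer and the cy5 CuO arrays are often the lowest.

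The 10 largest falls among called probes whose groups were separate after dye centring had log2 fold changes between -2.49 and -1.61, with limma adjusted p from 0.000182 to 0.0375. DM10419P2, described further on, fell by 2.25 but had overlapping groups. DM07144P1 had -1.45, -1.06, -1.89 and -0.72 in CuO animals, against 0.58, 1.24, 1.20 and 1.60 in blank animals. Its log2 fold change was -2.44 (SE 0.26), with the groups well apart and a limma adjusted p of 0.000182. DM05207P1 had -0.98, -0.61, -2.05 and -1.12 in CuO animals and 1.02, 2.08, 0.70 and 0.98 in blank animals, and it fell by 2.39 (SE 0.27, limma adjusted p = 0.00025). DM02654P2 had -0.77, -0.21, -1.001 and -0.94 in CuO animals and 1.21, 1.11, 0.51 and 0.69 in blank animals, and it fell by 1.61 (SE 0.22, limma adjusted p = 0.00065). These 3 falls had the smallest errors of the 10 and were alike in both dye orientations, with log2 fold changes of -2.17 and -2.71, -2.35 and -2.43, and -1.65 and -1.57 on the cy3 and cy5 arrays.

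In 6 of the 10 largest falls both cy5 CuO values lay below both cy3 CuO values. DM08755P3 had -0.67 and 0.43 on the cy3 and -2.27 and -1.33 on the cy5 CuO arrays, against 1.16, 0.81, 0.06 and 0.85 in blank replicates 1 to 4. It fell by 1.68 (SE 0.35, limma adjusted p = 0.00617), a call that was lost with no dye term in the fit (limma adjusted p = 0.0598). DM13359P1 had -0.43 and 0.10 on the cy3 and -2.11 and -1.17 on the cy5 CuO arrays, against 1.08, 0.80, 0.14 and 0.89 in blank animals, and it fell by 1.63 (limma adjusted p = 0.00453). On average both groups were lower on the cy5 arrays in DM08755P3 and in DM13359P1. The groups of DM08755P3 separated after centring within orientation but not as deposited. DM06597P2 had -1.76, 0.06, -2.31 and -1.63 in CuO animals and 1.75, 0.58, 0.30 and 1.22 in blank animals, and it fell by 2.37 (SE 0.41, limma adjusted p = 0.00235). DM11936P1 had -1.34, -0.13, -1.28 and -1.38 in CuO animals and 0.72, 0.35, 0.47 and 1.71 in blank animals, and it fell by 1.85 (SE 0.37, limma adjusted p = 0.0051). CuO replicate 2 was the highest CuO array in both of these probes.

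The other 3 of the largest falls depended on single arrays or settings, in size or in call. DM00920P3 had -0.69, -0.30, -4.69 and -2.65 in CuO animals, against 0.42, 0.11, 0.56 and 0.54 in blank animals. It fell by 2.49 (SE 0.68, limma adjusted p = 0.0193). Its cy5 CuO arrays were far below its cy3 CuO arrays, the log2 fold change was -1.73 without CuO replicate 3, and leaving out blank replicate 3 or 4 ended the call (limma adjusted p of 0.0524 and 0.0623). DM10614P3 had -1.06, -0.56, -1.71 and -1.01 in CuO animals and 1.71, 4.00, -0.03 and -0.47 in blank animals, and it fell by 2.39 (SE 0.58, limma adjusted p = 0.0123). Blank replicate 2 stood far above the other blanks, and the log2 fold change without it was -1.66, still called (limma adjusted p = 0.00798). The call held without any 1 CuO or blank array (limma adjusted p up to 0.0427). It was lost with no dye term (limma adjusted p = 0.0578). DM14182P2 had 0.10, -0.15, -2.60 and -2.26 in CuO animals and 1.79, 0.24, 0.03 and 0.66 in blank animals, and it fell by 1.91 (SE 0.61, limma adjusted p = 0.0375). The 2 groups overlapped as deposited, and its call was lost without any 1 of the 4 CuO replicates or without blank replicate 1, 3 or 4 (limma adjusted p from 0.0587 to 0.109).

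Separation was also counted over all called probes, these largest changes included, with values centred within dye orientation. All 4 CuO values were above or below all 4 blank values in 679 of 741 higher probes and in 483 of 538 lower ones. The same held for 35.2% of all probes, among them 334 that were not called. Of the called probes that changed at least 2-fold, 25 had overlapping groups. In 210 higher and 52 lower probes the whole 95% interval of the fold change was past 1.5-fold.

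The 4 CuO arrays differed in the size of the response. Over the 239 probes called at least 2-fold higher, the median log2 ratio was 0.41, -0.05, 0.35 and 0.32 in CuO replicates 1 to 4, against -1.26, -1.23, -1.14 and -1.32 in blank replicates 1 to 4. CuO replicate 2 thus lay nearest to the blanks. Among these probes it was the lowest of the 4 CuO arrays after dye centring in 110, against 17, 45 and 67 for CuO replicates 1, 3 and 4. CuO replicate 1 was the highest in 156. Over the 81 probes called at least 2-fold lower, the medians were -0.40, -0.22, -0.91 and -0.53 in CuO replicates 1 to 4 and 0.87, 0.74, 0.30 and 0.79 in blank replicates 1 to 4. CuO replicate 2 was again nearest to the blanks as deposited, and CuO replicate 3 was farthest. After dye centring CuO replicate 4 was the highest CuO array in 34 of these probes and CuO replicate 2 in 29. The lowest was CuO replicate 1 in 35 and CuO replicate 3 in 32. These probes were chosen on the same arrays, so the medians are a description.

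**Figure D3:**
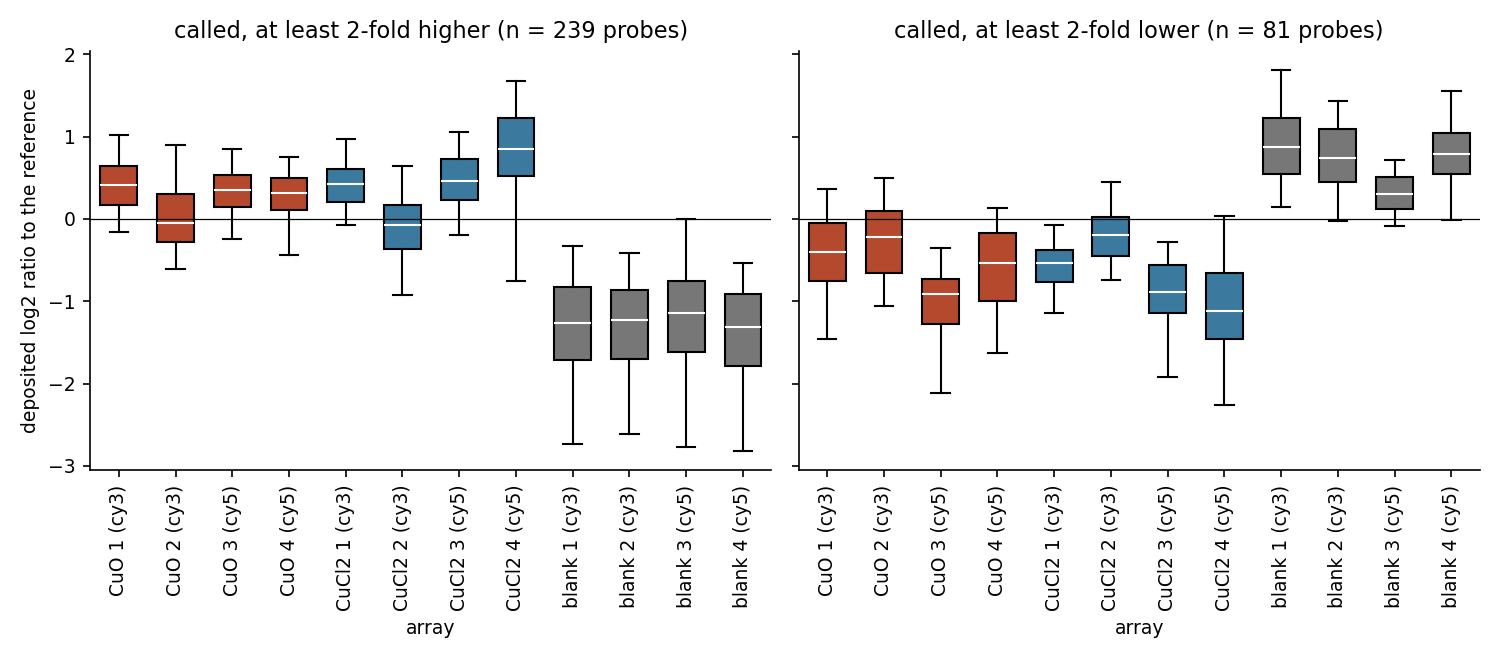
Deposited log2 ratio to the reference on each of the 12 arrays for the 239 probes called at least 2-fold higher (left) and the 81 called at least 2-fold lower (right); boxes span the quartiles with the median in white, and whiskers run from the 5th to the 95th percentile. The median of CuO replicate 2 is -0.05 in the left panel, against 0.32 to 0.41 on the other CuO arrays.

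The difference between CuO replicates 1 and 2, which share a dye orientation, ran along the response. Replicate 1 was above replicate 2 in 559 of the 741 higher probes and in 162 of the 538 lower ones. CuCl2 replicate 1 was likewise above CuCl2 replicate 2 in 587 higher and 85 lower probes. Between CuO replicates 3 and 4 the counts were 407 and 181, between CuCl2 replicates 3 and 4 249 and 393, between blank replicates 1 and 2 369 and 307, and between blank replicates 3 and 4 443 and 239. Uneven counts were thus not limited to the cy3 CuO pair. Over all probes the root mean square difference was 0.474 between CuO replicates 1 and 2, 0.421 between CuO replicates 3 and 4, 0.482 between blank replicates 1 and 2 and 0.486 between blank replicates 3 and 4. Thus the 2 cy3 CuO arrays differed from each other no more than the blanks did over all probes, but much of their difference lay in one direction over the called rises. The SD of the log2 ratios over all probes was nearly equal on these 2 arrays, at 0.439 and 0.438. Single probes varied about as much in CuO as in blank animals. The median SD after dye centring was 0.193 over CuO arrays and 0.204 over blank arrays, and it was larger in CuO for 47.1% of the probes.

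Among called probes the CuO replicates varied most in DM00920P3, described above, and in DM10419P2, DM07400P1 and DM11236P2. DM10419P2 had -2.27, 0.10, -1.92 and -2.66 in CuO animals, against 0.73, -0.02, 0.11 and 1.44 in blank animals. CuO replicate 2 lay within the blank values, and the fall of 2.25 (SE 0.54, limma adjusted p = 0.0116) came from the other 3 CuO arrays. DM07400P1 had 0.39, -0.53, 0.19 and -2.12 in CuO animals and -2.24, -2.61, -2.62 and -2.32 in blank animals, with a log2 fold change of 1.93 (SE 0.64, limma adjusted p = 0.0418). CuO replicate 4 was close to the blanks, and the call was lost without CuO replicate 1, 2 or 3 or any 1 of the 4 blanks (limma adjusted p from 0.0696 to 0.12), as well as with the robust trended prior (limma adjusted p = 0.0529) and no dye term (limma adjusted p = 0.0547). Quantile normalization gave a log2 fold change of 1.18 (limma adjusted p = 0.178), and one median absolute deviation for all arrays gave 1.41 (limma adjusted p = 0.13). DM11236P2 had 0.47, -0.43, -1.07 and 0.71 in CuO animals and -1.51, -0.95, -1.65 and -1.51 in blank animals, with a log2 fold change of 1.33 (SE 0.40, limma adjusted p = 0.0298). CuO replicate 3 overlapped the blanks. The call was lost without CuO replicate 1 or 4 or blank replicate 1, 3 or 4 (limma adjusted p from 0.0579 to 0.0916), under quantile normalization (limma adjusted p = 0.138) and when every array was given the same median absolute deviation (limma adjusted p = 0.0773).

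Each dye orientation held 2 CuO and 2 blank pools of its own, with the reference RNA shared. All 741 higher and all 538 lower probes had the same direction on the cy3 and on the cy5 arrays, which the call, made on the mean of both, nearly fixes. The median log2 fold change of the higher probes was 0.75 on cy3 and 0.78 on cy5, and that of the lower probes was -0.66 and -0.65. The effects on cy3 and cy5 had a Pearson r of 0.81 and a Spearman rho of 0.79 over all 4247 probes, a description only, since probes on one array are no replicates. Calls from one orientation could be read on the arrays of the other, which had no part in choosing them. Of the 43 probes called higher on the cy3 arrays alone (46 calls, 1.08% of all probes), 41 were higher on the cy5 arrays. On those arrays 37 were at least 2-fold higher. The median log2 fold change of the 43 was 2.12 on cy3 and 2.10 on cy5, with cy5 values from -1.08 to 4.13. Over all probes the median was 0.026 on cy3 and 0.021 on cy5. All 3 probes called lower on cy3 were at least 2-fold lower on cy5. Of the 228 called higher on the cy5 arrays alone (272 calls, 6.4%), 226 were higher and 133 at least 2-fold higher on cy3. Their medians were 1.32 on cy5 and 1.14 on cy3, with cy3 values from -0.67 to 4.14. Of the 44 called lower on cy5, 43 were lower and 19 at least 2-fold lower on cy3, with medians of -1.13 and -0.90.

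**Figure D4:**
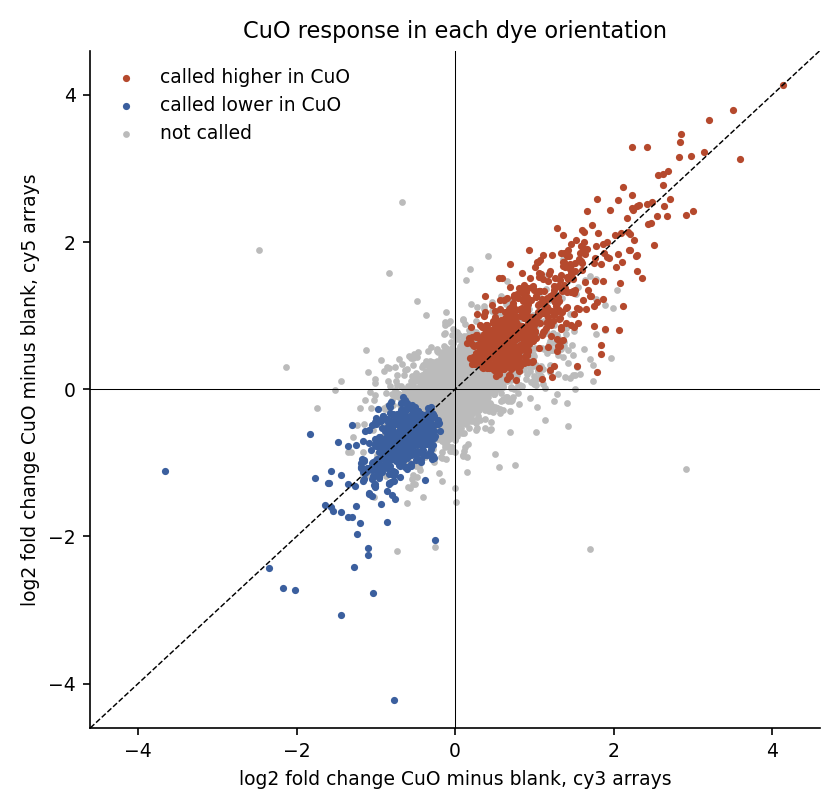
Log2 fold change (CuO minus blank) of each probe on the cy3 arrays (horizontal) and on the cy5 arrays (vertical), 2 arrays per group in each, with the line of equality dashed. Over all 4247 probes the Pearson r is 0.81; the called probes were chosen on the mean of both effects, so their agreement in sign is nearly fixed.

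The CuO effect was tested for a difference between the orientations in a separate model with a group by dye term, which leaves 6 residual degrees of freedom. No probe passed (0 of 4247, or 0%, by the limma interaction test at an adjusted p under 0.05), and 112 probes (2.64%) had an unadjusted p under 0.05. That number was 180 without CuO replicate 1, 223 without blank replicate 2 and 201 under quantile normalization. The smallest adjusted p was 0.0607, that of DM09680P3. This probe had -0.51 and -0.55 on the cy3 CuO arrays and -2.01 and -2.21 on the cy5 CuO arrays, against -0.16, -0.39, -0.11 and -0.01 in blank replicates 1 to 4. The CuO effect was thus -0.25 on cy3 and -2.04 on cy5, and the overall fall of 1.15 (SE 0.36, limma adjusted p = 0.0333) came mostly from CuO replicates 3 and 4. Its overall call was lost without CuO replicate 3 or 4 or blank replicate 1, 3 or 4 (limma adjusted p from 0.0532 to 0.0949) and with no dye term (limma adjusted p = 0.0505). Without blank replicate 1 the interaction passed for DM09680P3, DM07106P1 and DM11287P1, and without CuO replicate 4 for DM04967P3 and DM06929P1, 5 probes of which all but DM09680P3 are named after their values were seen.

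The next probes by the interaction did not pass, and their estimates had opposite signs on the cy3 and cy5 arrays. Since each orientation holds its own pools, the dye and the pools cannot be told apart here. DM05482P1 had 0.57 and 1.94 on the cy3 and -0.15 and -0.62 on the cy5 CuO arrays, against -0.33 and -0.56 on the cy3 and 2.59 and 0.99 on the cy5 blank arrays. Its log2 difference was 1.70 on cy3, -2.18 on cy5 and -0.24 overall (limma adjusted p = 0.807). DM07093P3 had 0.11 and -0.10 on the cy3 and 0.27 and -0.44 on the cy5 CuO arrays, against 0.99 and 1.25 on the cy3 and -0.64 and -0.59 on the cy5 blank arrays. Its log2 difference was -1.12 on cy3, 0.53 on cy5 and -0.29 overall (limma adjusted p = 0.501). The blanks of these probes fell into pairs by orientation, and neither probe was called for CuO against blank.

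For 2968 probes no change was called, and the intervals show which of them were measured closely. Of these probes 1537 had a 95% interval within 1.5-fold either way, 937 had one that passed 1.5-fold but stayed within 2-fold, and 494 had one that reached beyond 2-fold. For those 494 these arrays do not bound the change within 2-fold. Over all probes 1562 (36.8%) had an interval within 1.5-fold, of which 25 were called small changes, and the median half-width of the interval was 0.36 on the log2 scale. The largest estimates without a call were those of DM02902P2 and DM04156P3. DM02902P2 had 0.12, -0.74, 0.46 and -1.13 in CuO animals, against -2.76, -1.93, -2.17 and -1.21 in blank animals, a log2 difference of 1.70 (95% interval 0.28 to 3.11, limma adjusted p = 0.0671). DM04156P3 had 0.95, -1.04, 0.27 and -0.86 in CuO animals and -1.61, -2.05, -2.07 and -1.53 in blank animals, a log2 difference of 1.64 (0.36 to 2.93, limma adjusted p = 0.0538). The 4 CuO values of each spread over more than 1.5 log2 units. DM02902P2 passed without CuO replicate 4 (limma adjusted p = 0.0371) or CuCl2 replicate 4 (0.041), and DM04156P3 passed without CuO replicate 2 (0.043) or CuCl2 replicate 4 (0.0302). With the 8 CuO and blank arrays alone in the fit both passed (limma adjusted p = 0.0167 and 0.0211).

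The nanoparticle response was set beside that of the dissolved salt, which shares the 4 blanks with it. Over the 239 probes called at least 2-fold higher in CuO the median log2 fold change was 1.40 in CuO and 1.58 in CuCl2 animals. Over the 81 called at least 2-fold lower the medians were -1.13 in CuO and -1.36 in CuCl2 animals. Over all 741 higher probes they were 0.77 in CuO and 0.82 in CuCl2 animals, and over all 538 lower probes -0.64 and -0.74. The direct difference takes its estimate from the copper arrays alone, while its error pools the spread of all 3 groups. It was called for no probe (0 of 4247, or 0%, by limma at an adjusted p under 0.05), with 198 (4.66%) at an unadjusted p under 0.05 and a smallest adjusted p of 0.839. Without CuCl2 replicate 2 there were 616 at an unadjusted p under 0.05, with a smallest limma adjusted p of 0.266, against 105 without CuCl2 replicate 1, 107 without CuCl2 replicate 4 and 72 with no dye term, and 0 passed after adjustment in each case. The difference was bounded within 2-fold by its 95% interval in 169 of those 239 raised and 62 of those 81 lowered probes, and within 1.5-fold in 56 and 8. A difference of 1.5-fold between the copper forms is thus not bounded for most of the strongest responders.

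The median difference (CuO minus CuCl2) over the 239 higher probes was -0.20 on the log2 scale, with 176 of them below 0, in probes chosen on these CuO arrays. It was -0.05, with 143 below 0, without CuCl2 replicate 4, whose log2 ratios had the widest spread over probes of all 12 arrays (SD 0.711). Without CuCl2 replicate 2 it was -0.34, and without CuO replicate 2 it was -0.12. Over the 81 lower probes the median difference was 0.13, and it was -0.0069 without CuO replicate 4 and 0.25 without CuCl2 replicate 2. These medians carry no test and moved with single copper arrays.

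Of the 10 largest rises, 0 had a difference between the copper forms with an unadjusted p under 0.05, and 1 of the 10 largest falls had one. DM11354P1 had a log2 fold change of 4.14 in CuO and 4.37 in CuCl2 animals, a difference of -0.23 (95% interval -0.84 to 0.37). DM02677P3 had 3.07 and 3.31, a difference of -0.24 (-0.64 to 0.17). DM01846P3 had 3.36 and 3.98, a difference of -0.62 (-1.82 to 0.57). The interval was narrow enough to bound DM02677P3 and DM11354P1 within 2-fold, but not DM01846P3. The largest fall, DM00920P3, had log2 ratios of -0.62, 1.01, -0.31 and -0.43 in CuCl2 replicates 1 to 4. Its log2 fold changes were -2.49 in CuO and -0.50 in CuCl2 animals, a difference of -1.996 (-3.48 to -0.51, unadjusted p = 0.0131, limma adjusted p = 0.839). DM14182P2 had -0.26, 2.01, -2.16 and 0.07 in CuCl2 replicates 1 to 4 and thus values near both its low CuO and its blank arrays. Its log2 fold changes were -1.91 in CuO and -0.76 in CuCl2 animals, a difference of -1.15 (-2.49 to 0.20). DM09680P3 had -0.27, -0.20, 0.36 and 0.26 in CuCl2 replicates 1 to 4, none of them near its low cy5 CuO values. Its log2 fold changes were -1.15 in CuO and 0.21 in CuCl2 animals, a difference of -1.35 (-2.14 to -0.57, unadjusted p = 0.00288, limma adjusted p = 0.839). None of these differences passed after adjustment.

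**Figure D5:**
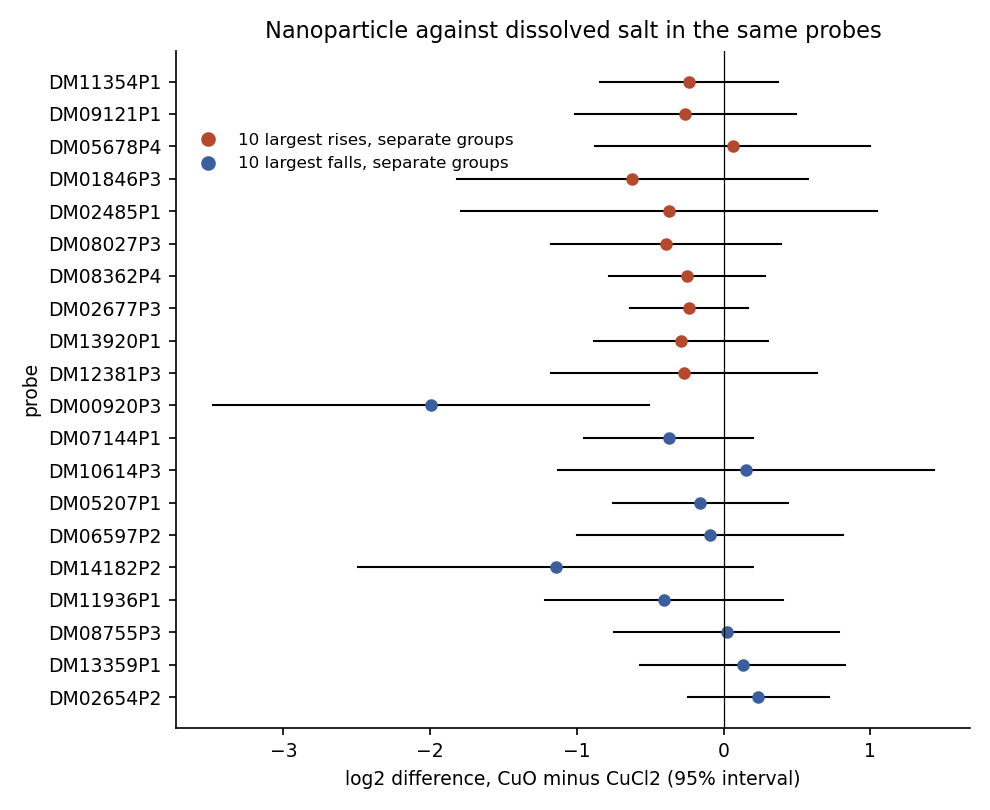
Log2 difference between CuO and CuCl2 animals (CuO minus CuCl2, points) with its 95% interval (lines) for the 10 largest called rises and falls of CuO against blank with separate dye-centred groups. All intervals but that of DM00920P3 (-3.48 to -0.51) include 0.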

How the data were processed

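The authors deposited 1 table of log ratios per array, read here as log2 ratios of the exposed pool to the copper reference. Scale, centring and direction are not stated. The submitters' processing notes list limma, with no version, and the sources used here do not give the background correction, the normalization or how rows were selected. Every column belonged to a sample. Of 4262 rows, 15 control probes were set aside, and 0 values were missing. All 15 controls had opposite signs in the 2 dye orientations, so columns were taken as already turned one way. Labelling used 100 ng of RNA, per the labels' protocols.

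Group and dye orientation were fitted to the 12 arrays, which leaves 8 residual degrees of freedom. The fit used limma 3.58.1 in R 4.3.3, eBayes and Benjamini-Hochberg adjustment over 4247 probes. It was also run on simulated data with independent errors and 200 changed probes, fewer than were called here. That run bears on the code and not on these calls. Dye-centred values subtract each orientation's mean over the 3 groups. The design text speaks of 4 replicate exposures; no 2 arrays of a group were identical (root mean square differences 0.421 to 0.949), and replicate numbers were not used as pairs. Named probes were the 10 largest rises and falls with separate groups, the 2 smallest p-values per direction, the 3 smallest interaction p-values, the 4 most variable called probes and the 2 largest uncalled estimates. A further rule for sets of probes with one DM number gave none, since each number had 1 probe. The groups and rules were chosen with earlier results of these data known. Alternatives covered the dye term, replicate block, centring, normalization, scaling, samples fitted, prior, array weights, probe filter, fold minimum, log base, single orientations and leaving out arrays. Zinc exposures were not analysed here.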

Additional observations from a re-analysis of the deposited data

Results flagged for a closer look

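The CuO and the blank values of each named probe, and 3 summaries per array, made 64 groups of 4 values in which a lone distant array was looked for. It was found in 3. Chance alone marks about 1 in 20 of independent sets. These probes were chosen on the same values and share arrays, so the count cannot be judged against that rate. The dye-centred log2 ratio of DM11936P1 was 0.10 in CuO replicate 2, against -1.11 to -0.95 in the other CuO arrays. That of DM08362P4 was -2.73 in blank replicate 4, against -1.999 to -1.93 in the other blanks. The SD of the log2 ratios over all probes ranged from 0.429 to 0.439 on CuO replicates 1 to 3 and was 0.357 on CuO replicate 4.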

How the results depend on the processing

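The 25 called named probes kept their direction under every alternative run for them, which their choice on these same arrays nearly fixes. Over all named probes 503 values stayed the same in sign and call, 63 lost the call and 10 gained it. The most losses fell on DM07400P1 (13), DM14182P2 (10) and DM11236P2 (9), each of 20 alternatives. DM05482P1, which was not called, turned to 0.17 without CuO replicate 4, 0.47 without blank replicate 3 and 1.70 on the cy3 arrays (-0.81 to 0.47 with 1 array left out), and DM07093P3 turned to 0.53 on the cy5 arrays. With no dye term 629 probes were called, 407 higher and 222 lower. With the replicate number as a replicate block 1232 were called; CuO and blank arrays of one number did not deviate together (r = -0.10, -0.35, -0.14 and -0.05 over probes for numbers 1 to 4), and 0 of 4 CuO arrays correlated best with the blank of its own number. The block ended the call of DM09680P3 (limma adjusted p = 0.0516) and made one for DM04156P3 (0.0268). On the cy3 arrays alone 46 probes were called, 43 higher and 3 lower; all passed 2-fold, 28 and 1 passed 4-fold, and 422 intervals lay within 1.5-fold. On the cy5 arrays alone 272 were called, 228 higher and 44 lower, 26 of them at least 2-fold lower, and 808 intervals lay within 1.5-fold. These fits hold 6 arrays. A minimum of 1.5-fold left 847 calls, 319 of them lower. Quantile normalization and scaling to one median absolute deviation gave 19 and 30 rises of at least 4-fold. Among the more variable probes 30 intervals lay within 1.5-fold. Read as natural logs, 427 rises and 224 falls passed 2-fold, and 122 and 22 passed 4-fold. Leaving out 1 CuO or blank array or CuCl2 replicate 4 gave 806 to 1378 calls, 508 to 773 higher and 298 to 605 lower, with 187 to 269 and 45 to 117 at least 2-fold, 36 to 52 and 4 to 7 at least 4-fold, 1314 to 1594 intervals within 1.5-fold, and 0 to 3 interactions (CuO and blank arrays); leaving out 1 copper array gave 0 differences from CuCl2. The lower median difference from CuCl2 ran from -0.0069 without CuO replicate 4 to 0.25 without CuCl2 replicate 2, alternatives chosen after seeing the data. Agreement within sets of probes with one DM number was not run, since no set exists. The cause of these shifts was not tested.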

Other observations

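In 5 probes with large estimates, of which DM02902P2 and DM04156P3 were not called, chosen after their values were seen, CuO replicate 4 lay well below CuO replicate 3, on the same dye: -0.93 and 0.42 in DM01846P3, -0.72 and 0.23 in DM02485P1, -2.12 and 0.19 in DM07400P1, -1.13 and 0.46 in DM02902P2 and -0.86 and 0.27 in DM04156P3, in that order of replicates. CuCl2 replicate 4 had the highest value of all 12 arrays in each of them, 2.11, 2.19, 2.37, 2.13 and 1.68 in the same order of probes. In DM11354P1, DM09121P1 and DM05678P4 CuO replicate 4 was not below CuO replicate 3, while CuCl2 replicate 4 was again the highest of all arrays, at 1.43, 1.69 and 1.68.

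The share of called probes by the suffix of the identifier was 29.0% for P1, 31.3% for P2, 30.8% for P3 and 30.3% for P4. It varied in direction along the probe numbers, whose meaning is not given in the sources used here. Of the 693 probes numbered up to 2000, 13.3% were called higher and 15.6% lower. The 579 probes numbered from 8001 to 10000 had 22.3% and 12.1%, and the 132 numbered above 14000 had 18.9% and 7.58%. No test was made of this.

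The deposited numbers were written differently for the dye orientations. On the 6 cy5 arrays 99.2% to 99.6% of the values had more than 6 significant digits, and on the 6 cy3 arrays at most 0.0471% did.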
